A study of Mus musculus with 4 samples.

Results

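The genes described here are those of heparan sulfate proteoglycans and of the enzymes that build, sulfate and cleave their chains, measured in mouse skeletal stem cells from Mmp14 knockout (Mmp14-/-) and wild-type (Mmp14+/+) mice. Members were chosen by gene symbol: 35 genes were listed, and 33 of them had a probe set with exactly 1 symbol, out of 22180 such genes on the array. Cells came from mice aged 4 to 6 weeks and were kept in 3D collagen gel for 48 h, and 2 arrays were made from each genotype. Mmp14 encodes MT1-MMP, a membrane-anchored protease that cleaves collagen, and the stated purpose of the study was a screen for transcriptional changes without it. The labels do not give the deleted part of Mmp14 or whether it was deleted in every cell of the mouse. They also do not say whether the 2 arrays of a genotype came from separate animals or pools, so p-values measure only the spread between these arrays, which may be technical. The arrays measured RNA of the whole culture, in which fewer cells of a type and less RNA per cell cannot be told apart.

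Heparan sulfate is a long sugar chain carried by core proteins at the cell surface and in the matrix. Syndecans span the membrane, glypicans are tied to it by a lipid anchor, and agrin and perlecan lie in basement membranes. A linkage region that begins with xylose starts the chain, exostosins extend it, and sulfotransferases add the sulfate pattern by which it binds growth factors such as FGFs, Wnts and BMPs. In the skeleton, heparan sulfate is known for its part in growth plate cartilage and in bone formation.

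Of the 33 measured genes, 29 passed the filter on dim signal, a mean of at least 2.34 log2 over the 4 arrays. In Mmp14 knockout cells 4 rose (Hpse2, Hs6st1, Xylt1 and Agrn), 2 fell (Gpc3 and Gpc1) and 23 were not called. A gene was called when its limma p, adjusted by Benjamini and Hochberg over all genes tested, was below 0.05. The 6 called genes were 20.7% of the 29, against 11.3% called among all 12708 tested genes, or 6.2% higher and 5.12% lower. The median log2 difference, knockout minus wild type as everywhere below, was 0.11 over the 29 genes and -0.0041 over all tested genes. The knockout and wild-type values did not overlap in 21 of the 29, and over all tested genes this held for 57.8%. An unadjusted limma p under 0.05 was found for 11 of the 29, beside 27.5% of all tested genes. The shares were not compared by a test. The members were chosen with earlier results of these data known, so nothing is read from these shares.

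The promoters of 3 called genes are printed because these genes had the largest differences among called members with a RefSeq promoter. Each is the 250 bases before the annotated start, 5′ to 3′, from RefSeq (GRCm38.p6), with the GC box letters GGGCGG, on either strand, in capitals. The windows are chr19:43388356-43388605 on the minus strand for Hpse2, chr1:36068150-36068399 on the plus strand for Hs6st1 and chrX:52613975-52614224 on the minus strand for Gpc3.
Hpse2: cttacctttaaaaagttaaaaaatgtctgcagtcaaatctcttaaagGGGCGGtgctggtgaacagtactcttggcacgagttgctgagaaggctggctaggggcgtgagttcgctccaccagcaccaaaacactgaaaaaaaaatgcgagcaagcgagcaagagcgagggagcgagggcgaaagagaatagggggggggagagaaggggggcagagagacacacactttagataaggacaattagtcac
Hs6st1: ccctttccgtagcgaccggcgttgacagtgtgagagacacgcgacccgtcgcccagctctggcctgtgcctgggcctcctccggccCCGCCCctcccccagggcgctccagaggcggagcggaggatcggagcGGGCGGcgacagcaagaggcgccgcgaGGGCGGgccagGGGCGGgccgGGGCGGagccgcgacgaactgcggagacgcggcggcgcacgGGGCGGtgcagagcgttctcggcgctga
Gpc3: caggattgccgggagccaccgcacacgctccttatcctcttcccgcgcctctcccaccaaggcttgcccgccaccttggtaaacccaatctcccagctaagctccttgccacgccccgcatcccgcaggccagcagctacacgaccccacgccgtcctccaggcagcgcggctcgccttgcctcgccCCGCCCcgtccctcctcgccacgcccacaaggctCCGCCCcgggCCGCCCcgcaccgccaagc
The Hs6st1 window held 6 GC boxes and was 76.4% G or C. The Gpc3 window held 3 and was 71.6% G or C, and the Hpse2 window held 1 and was 50.0% G or C. The letters of a TATA box (TATAAA), a TCF/LEF core (CTTTGA), an AP-1 site (TGANTCA) and an E box (CACGTG), searched on both strands, were in none of these 3 windows, so no capitals overlap another motif. RefSeq promoters were matched for 26 of the listed genes, in 31 windows, of which 64.5% held a GC box, against 32.7% of all 32851 windows of the same length. The median window was 64.0% G or C for the listed genes and 52.4% for all windows.

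As a check of the labels, Mmp14 was measured at 5.77 and 5.84 log2 in knockout, against 8.77 and 8.83 in wild type. All 13 measured stem and stromal markers passed the filter, led by collagen genes and by Prrx1, a mesenchymal transcription factor, at 10.2 in both genotypes. Of these 13, 4 rose (Cxcl12 by 1.81, Pdgfra by 1.77, Cd200 by 1.46 and Nt5e by 1.10), 1 fell (Lepr, a marker of marrow stroma, by 2.26, limma adjusted p = 0.000995) and 8 were not called. Endothelial markers were dim, with 6 of 7 below the filter, and so were 4 of 8 leukocyte markers, among them Ptprc. The other 4 leukocyte markers passed the filter and none was called. Cd68 had 4.38 to 4.73 log2, and Lyz2, Cd14 and Csf1r had means of 2.88, 2.71 and 2.57. The log2 summed intensity of 8 cartilage genes was 11.6 and 11.8 in knockout and 11.7 on both wild-type arrays. Not all 8 were bright: Matn1 and Matn3 had means of 2.67 and 2.79 over the 4 arrays. Of the 8, Sox9 rose by 1.92 (limma adjusted p = 0.00135), while Acan and Comp fell by 1.97 and 1.21 (limma adjusted p = 0.00469 and 0.00267). The other 5 were not called: Hapln1 (0.82), Matn1 (0.63), Matn3 (-0.028), Col9a1 (-0.070) and Col2a1 (-0.079). Of 6 adipocyte markers Pparg rose (2.31, limma adjusted p = 0.00158), and the log2 summed intensity was 7.03 and 7.12 in knockout, against 5.46 and 5.68 in wild type, while Adipoq, Fabp4, Plin1, Cidec and Lep were dim or near the limit, at most 3.11. Of 4 tested Schwann and neural markers Ncam1 fell by 0.81 and 3 were not called, with positive differences (S100b 1.02, Mbp 0.45 and Ngfr 0.057). Of 4 epithelial and 2 muscle markers tested none was called. Over all tested genes 11.3% were called, and nothing is read from the counts of called markers. The part of cartilage, adipocyte and neural genes in the results below was not tested. The knockout arrays correlated at 0.994 over the tested genes and the wild-type arrays at 0.992.

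**Figure D1:**
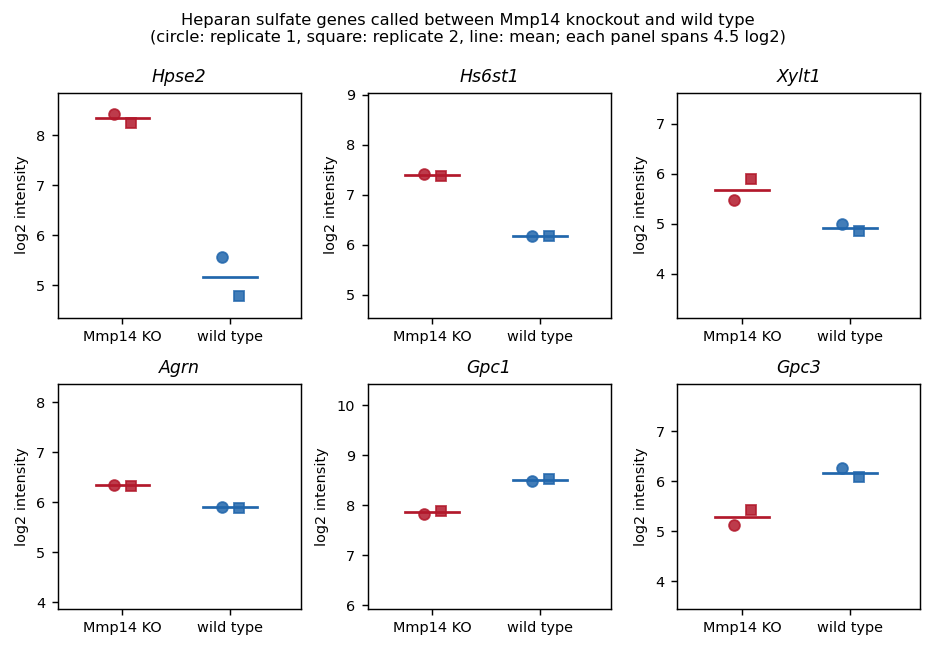
Log2 intensity (vertical axis) of the 6 called genes on each array, with Mmp14 knockout at the left and wild type at the right of each panel. Points are arrays (circles replicate 1, squares replicate 2) and lines are group means over 2 arrays. The groups are apart in every panel, by the most for Hpse2, with 8.25 and 8.43 in knockout against 4.78 and 5.57 in wild type.

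Hpse2 rose the most of all listed genes. It encodes heparanase-2, a relative of heparanase that, in human, binds heparan sulfate without cutting it and can inhibit heparanase. Its only probe set (17364917, gene on chromosome 19) had 8.43 and 8.25 log2 in knockout, against 5.57 and 4.78 in wild type. The wild-type arrays were 0.79 log2 apart, the widest gap between wild-type replicates among the 29 tested genes, and the groups were still far from overlapping. Hpse2 was 8.98-fold higher, a difference of 3.17 log2 (SE 0.25, 95% interval 2.54 to 3.79, limma adjusted p = 0.0018, n = 2 per group), which ranked 12th by size among the 12708 tested genes. With 1 array left out the difference ran between 2.77 and 3.56 log2, and the call held each time. Hpse, heparanase itself, the endoglycosidase that cuts heparan sulfate chains, was too dim to be tested. It had 1.79 and 2.39 log2 in knockout, against 2.62 and 2.29 in wild type, and its second probe set stayed between 1.48 and 1.56 on all arrays.

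The extracellular sulfatases Sulf1 and Sulf2, which remove 6-O-sulfate from finished chains, were bright in both genotypes and neither was called. Sulf1 had 8.81 and 8.71 log2 in knockout, against 8.56 and 8.75 in wild type, a difference of 0.11 with a 95% interval of -0.18 to 0.40. Sulf2 had 9.16 and 9.31 in knockout, against 9.45 and 9.52 in wild type. Its groups did not overlap, as in 57.8% of all tested genes. The difference of -0.25 was not called (95% interval -0.52 to 0.023, limma adjusted p = 0.215). Neither interval reaches a change of 1 log2 in either direction.

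The 6 glypicans hold heparan sulfate on the outer face of the membrane and are known to bind Wnts, hedgehogs and BMPs. Of the 6, 2 fell, 3 were not called and Gpc5 was too dim to be tested. Over all tested genes 5.12% were called lower, and nothing is read from the count of glypicans. Gpc3, the glypican mutated in a human overgrowth syndrome, had 5.12 and 5.43 log2 in knockout, against 6.28 and 6.08 in wild type. It was 1.86-fold lower (log2 difference -0.90, SE 0.15, limma adjusted p = 0.0157, n = 2 per group). With 1 array left out the difference ran between -1.05 and -0.74 log2. The call was lost when wild type replicate 1 or Mmp14 knockout replicate 1 was left out. Fits with an array left out called fewer of all genes too, so a lost call does not single out an array. Over all alternatives the adjusted p of Gpc3 reached 0.122. Gpc1 had 7.83 and 7.88 log2 in knockout, against 8.50 and 8.53 in wild type, with replicates much closer than the groups. Gpc1 was 1.58-fold lower (log2 difference -0.66, SE 0.10, limma adjusted p = 0.0134, n = 2 per group). With 1 array left out the difference ran between -0.68 and -0.63 log2, and the call was lost when either knockout array was left out. The adjusted p reached 0.107 over all alternatives. A second, dim probe set of Gpc1 had 2.36 and 2.43 in knockout, against 2.66 and 3.22 in wild type, a difference of -0.55.

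Gpc4, Gpc6 and Gpc2 lay at or above 0. Gpc4 had 7.71 and 7.46 log2 in knockout, against 7.22 and 7.42 in wild type (difference 0.27, 95% interval -0.061 to 0.60). Gpc6 had 7.34 and 7.25 in knockout, against 6.95 and 7.15 in wild type (difference 0.25, 95% interval -0.041 to 0.53). In Gpc4 and Gpc6 the groups did not overlap, as in 57.8% of all tested genes, and both intervals include 0. Gpc2 overlapped between the groups at 5.41 to 5.65, with a difference of 0.039, and Gpc5 stayed between 1.62 and 1.75. Gpc3 and Gpc4 are neighbours on the X chromosome, as Gpc5 and Gpc6 are on chromosome 14. Hs6st2, described with the sulfotransferases, is X-linked too. Of 3 listed X-linked genes 1 was called, beside 11.3% of all tested genes, and nothing is read from this count. Some transcripts tied to sex were not level between the groups. Xist, transcribed from the inactive X chromosome, was called higher, with 9.30 and 9.09 log2 in knockout, against 8.45 and 8.48 in wild type. The Y-linked Eif2s3y was called lower, with 5.19 and 5.40 in knockout, against 6.18 and 5.79 in wild type. The Y-linked Kdm5d (difference -0.42, limma adjusted p = 0.104) and Uty (-0.25, limma adjusted p = 0.52) were not called. Uty values overlapped between the groups. The part of these transcripts in the value of Gpc3 was not tested.

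None of the 4 syndecans, the membrane-spanning carriers of heparan sulfate, was called by limma, with an unadjusted p under 0.05 for 2 of them, beside 27.5% of all tested genes. Knockout and wild-type values were apart in all 4, as they were in 57.8% of all tested genes. Sdc2 had 9.50 and 9.66 log2 in knockout, against 10.1 and 9.97 in wild type (difference -0.45, SE 0.11, limma adjusted p = 0.0599). Sdc3 had 9.21 on both knockout arrays, against 9.49 and 9.63 in wild type (difference -0.35, limma adjusted p = 0.0923). Both knockout arrays lay below both wild-type arrays in Sdc2 and in Sdc3, without a call. Both were called when the variance prior followed intensity (eBayes with trend and robust, adjusted p = 0.00534 for Sdc2 and 0.0121 for Sdc3), and over all alternatives their adjusted p reached 0.292 and 0.322. Sdc4, a syndecan of focal adhesions, had 9.39 and 9.24 in knockout, against 9.01 and 9.10 in wild type (difference 0.26, 95% interval -0.0092 to 0.54). Sdc1 had 4.86 and 4.89 in knockout, against 4.64 and 4.77 in wild type, a difference of 0.17, with 0.22 at its second probe set.

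Agrn encodes agrin, a basement membrane proteoglycan best known for gathering acetylcholine receptors at the neuromuscular junction. Agrn (chromosome 4) had 6.34 and 6.33 log2 in knockout, against 5.90 and 5.89 in wild type. Replicates were nearly equal in both genotypes, and Agrn was 1.36-fold higher (log2 difference 0.44, SE 0.10, limma adjusted p = 0.0428, n = 2 per group). The size hardly moved when an array was left out, 0.44 to 0.45, but the call was lost each time: the adjusted p was 0.199 or 0.163 on leaving out Mmp14 knockout replicate 1 or 2, and 0.0939 or 0.108 on leaving out wild type replicate 1 or 2. Over all alternatives it ran up to 0.204.

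**Figure D2:**
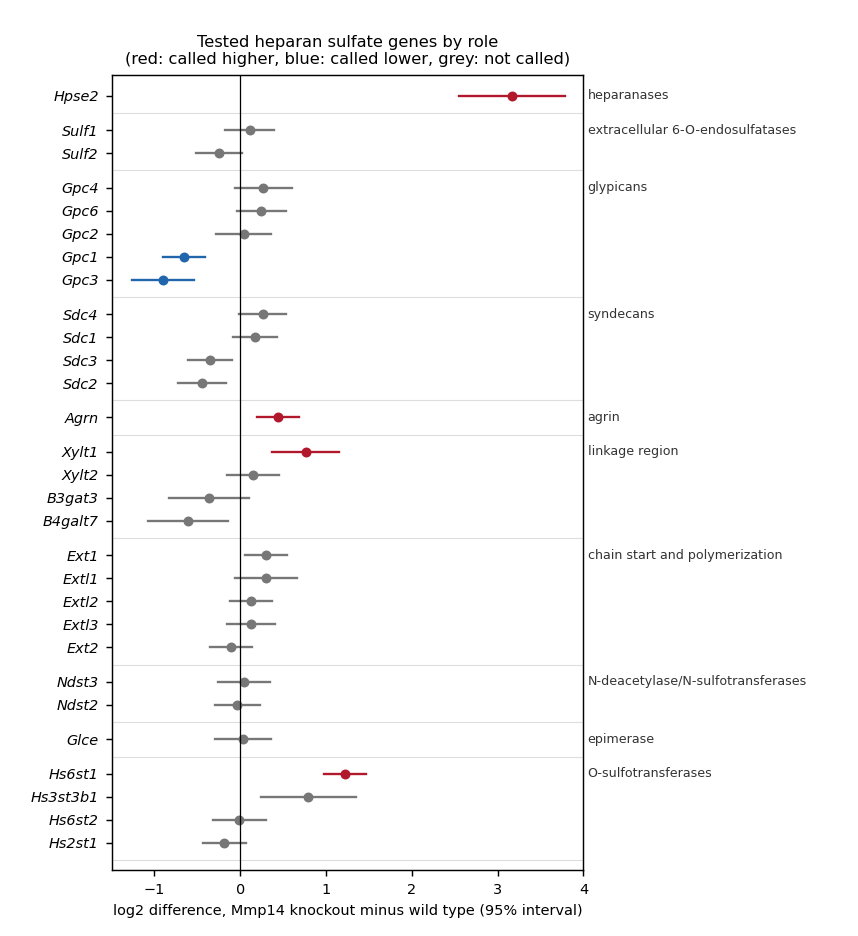
Log2 difference, Mmp14 knockout minus wild type (horizontal axis), of the 29 tested genes grouped by role, with the 95% interval from limma as a bar. Red points were called higher, blue points were called lower and grey points were not called. Hpse2 stands alone at 3.17, Hs6st1 follows at 1.22, and the remaining genes lie between -0.90 and 0.79.

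Of the 4 enzymes of the linkage region, which heparan and chondroitin sulfate share, 1 rose and 3 were not called. Over all tested genes 6.2% were called higher and 5.12% lower, and nothing is read from the count of linkage enzymes. Xylt1, a xylosyltransferase that begins the chain by adding xylose to the core protein, had 5.48 and 5.89 log2 in knockout, against 4.99 and 4.86 in wild type. Xylt1 (chromosome 7) was 1.69-fold higher (log2 difference 0.76, SE 0.16, limma adjusted p = 0.0341, n = 2 per group). With 1 array left out the difference ran between 0.56 and 0.96 log2. The call was lost without Mmp14 knockout replicate 2 (difference 0.56), wild type replicate 1 (0.83) or wild type replicate 2 (0.70). Over all alternatives the adjusted p reached 0.191. Its paralog Xylt2 overlapped between the groups, with a difference of 0.15 and a 95% interval of -0.15 to 0.45.

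B4galt7 and B3gat3, which add the galactose next to the xylose and the closing glucuronic acid of the linkage, had values below 0. B4galt7 had 4.99 and 5.10 log2 in knockout, against 5.93 and 5.38 in wild type (difference -0.61, limma adjusted p = 0.1). The wild-type arrays differed by more than 0.5 log2, and without wild type replicate 2 B4galt7 was called at -0.88 (adjusted p = 0.0228, over all alternatives 0.0228 to 0.345). A second probe set of B4galt7, at 2.84 to 3.07 log2, gave 0.043, and the mean of both probe sets gave -0.28. B3gat3 had 4.92 and 5.48 in knockout, against 5.61 and 5.52 in wild type, so that 1 knockout array lay beside wild type (difference -0.37, 95% interval -0.83 to 0.10).

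None of the 5 genes of chain start and polymerization was called by limma, with an unadjusted p under 0.05 for 1 of them, against 27.5% of all tested genes. Ext1 and Ext2 form the polymerase that extends the chain. Ext1 had 8.70 and 8.66 log2 in knockout, against 8.35 and 8.40 in wild type, a difference of 0.30 with a 95% interval of 0.055 to 0.55 (limma adjusted p = 0.117). It was called only with trend and robust (adjusted p = 0.0254, over all alternatives 0.0254 to 0.42). Ext2 had 7.33 and 7.36 in knockout, against 7.46 and 7.45 in wild type, a difference of -0.11. The groups did not overlap in either partner, as in 57.8% of all tested genes, and the sizes were below 0.5 log2. The 95% interval of Ext2, -0.35 to 0.14, includes 0. The exostosin-like genes Extl1, Extl2 and Extl3, of which Extl3 adds the N-acetylglucosamine that commits a chain to heparan sulfate, had differences of 0.30, 0.13 and 0.12, and Extl1 was close to the limit for dim genes at 2.11 to 2.66 log2.

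Modification of the chain starts with N-deacetylase/N-sulfotransferases, which replace acetyl by sulfate on glucosamine. Ndst2 overlapped between the groups (5.95 and 6.01 log2 in knockout, 5.95 and 6.08 in wild type; 95% interval of the difference -0.30 to 0.23). Ndst3 was near the limit for dim genes with a difference of 0.048, Ndst4 was too dim to be tested at 1.27 to 1.45, and Ndst1 was not analysed here. Glce, the epimerase that turns glucuronic into iduronic acid, had 7.16 and 7.17 in knockout, against 7.28 and 6.98 in wild type (difference 0.034, 95% interval -0.29 to 0.36). A second, dim probe set of Glce gave 0.33.

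Hs6st1, the 6-O-sulfotransferase that adds sulfate at the position the Sulf enzymes clear, rose the most of the chain enzymes. It had 7.42 and 7.37 log2 in knockout, against 6.17 and 6.18 in wild type. Replicates lay close together in both genotypes while the groups were more than 1 log2 apart. Hs6st1 (chromosome 1) was 2.33-fold higher (log2 difference 1.22, SE 0.10, 95% interval 0.98 to 1.47, limma adjusted p = 0.00196, n = 2 per group). With 1 array left out the difference was 1.20 to 1.25 log2 and the call held each time. Its paralog Hs6st2 had 5.12 and 5.10 in knockout, against 4.99 and 5.25 in wild type, with a difference of -0.0087 and a 95% interval of -0.31 to 0.30. The difference between the paralogs was not tested.

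Of the other O-sulfotransferases none was called. Hs3st3b1, a 3-O-sulfotransferase, had 4.64 and 5.34 log2 in knockout, against 4.23 and 4.17 in wild type (difference 0.79, SE 0.23, limma adjusted p = 0.0795). Its knockout arrays were 0.70 log2 apart, the widest gap between knockout replicates among the 29 tested genes. Without Mmp14 knockout replicate 1 Hs3st3b1 was called at 1.15 (adjusted p = 0.00941, over all alternatives 0.00941 to 0.308), and without Mmp14 knockout replicate 2 the difference was 0.44. It was also called with trend and robust (adjusted p = 0.0375). Hs2st1, which sulfates iduronic acid, had 6.03 and 6.05 in knockout, against 6.27 and 6.18 in wild type (difference -0.18, 95% interval -0.44 to 0.068). Hs3st1 was too dim to be tested at 1.70 to 2.02, and Hs3st3a1 was not analysed here because both of its probe sets carry a second symbol.

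**Figure D3:**
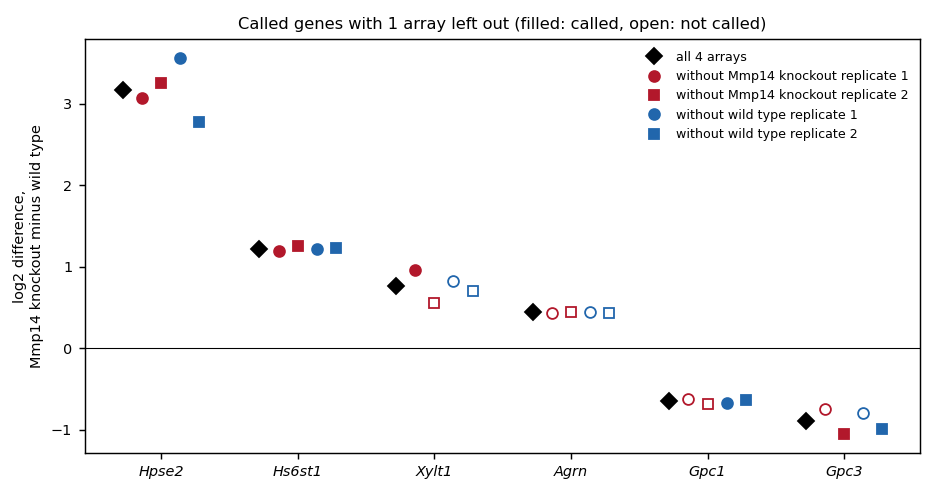
Log2 difference, Mmp14 knockout minus wild type (vertical axis), of the 6 called genes with all 4 arrays (diamonds) and with 1 array left out (red: a knockout array, blue: a wild-type array). Filled points were called at an adjusted p below 0.05 and open points were not. Hpse2 and Hs6st1 were called in all 4 reduced fits, Gpc1 and Gpc3 in 2, Xylt1 in 1 and Agrn in 0.

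Related genes outside the 35 were followed with 6 lists of the same pathway. In these lists 13 of 71 tested genes rose, 9 fell and 49 were not called, with a median of 0.038. The 22 called genes were 31.0% of the 71, beside 11.3% of all tested genes. These lists too were chosen with earlier results of these data known, so nothing is read from this share. The counts of the single lists stand beside the same 11.3%. Among 9 tested core proteins 2 rose, 1 fell and 6 were not called. Col18a1 encodes a basement membrane collagen that carries heparan sulfate and holds endostatin. Col18a1 had 7.50 and 6.98 log2 in knockout, against 5.60 and 5.67 in wild type (difference 1.60, SE 0.18, limma adjusted p = 0.00507). It was not called when 1 fit held all probe sets (limma adjusted p = 0.0696). Tgfbr3, the part-time proteoglycan betaglycan, rose by 0.57, and Cd44, whose variants can carry heparan sulfate, fell by 0.45. The calls of Tgfbr3 and Cd44 were lost whichever array was left out, with adjusted p of 0.0597 to 0.172 for Tgfbr3 and 0.0709 to 0.185 for Cd44 (up to 0.187 and 0.215 over all alternatives). Hspg2, which encodes perlecan, had 8.83 and 8.65 in knockout, against 8.69 and 8.84 in wild type (difference -0.023, 95% interval -0.32 to 0.27).

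Of 6 other tested synthesis enzymes 1 fell and 5 were not called. Pxylp1, a phosphatase that takes the phosphate off the linkage xylose and so lets the chain be extended, had 3.36 and 3.50 log2 in knockout, against 4.96 and 5.22 in wild type. It was 3.16-fold lower (log2 difference -1.66, SE 0.13, limma adjusted p = 0.00175), and it was called under all 12 alternatives that tested it. Fam20b, the kinase that adds that phosphate, had a difference of 0.18. Of 13 genes that supply sugar nucleotides and sulfate 1 rose, 1 fell and 11 were not called. Ugp2, which makes UDP-glucose, rose by 0.63, but not without Mmp14 knockout replicate 1 (adjusted p = 0.0643), Mmp14 knockout replicate 2 (0.0889) or wild type replicate 2 (0.0673). Bpnt1, a phosphatase of the sulfate donor's by-product, fell by 0.51 and lost its call whichever array was left out (adjusted p = 0.0774 to 0.22). Over all alternatives the adjusted p reached 0.132 for Ugp2 and 0.22 for Bpnt1. Of 9 lysosomal genes of heparan sulfate breakdown 1 rose, Idua (0.46), which was not called in any fit without 1 array (adjusted p = 0.103 to 0.2, up to 0.209 over all alternatives), and 8 were not called.

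Of 22 tested growth factors, receptors and morphogens that depend on heparan sulfate, 7 rose, 4 fell and 11 were not called, with a median of 0.14. Several of them were known from earlier results of these data to differ, so nothing is read from this count beside the 11.3% of all tested genes. Hgf, the ligand of the Met receptor, had 6.76 and 6.46 log2 in knockout, against 4.71 and 4.68 in wild type (difference 1.92). Cxcl12, a chemokine of the marrow niche, rose by 1.81 and Wnt5a by 1.79. Notum, a secreted enzyme that inactivates Wnts and is known to act together with glypicans, had 2.86 and 2.92 in knockout, against 5.26 and 5.33 in wild type (difference -2.40, limma adjusted p = 0.000578). A second probe set of Notum, near the limit for dim genes, gave -0.30, and the mean of both gave -1.35. Hgf, Cxcl12, Wnt5a and Notum were called under every alternative that tested them.

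**Figure D4:**
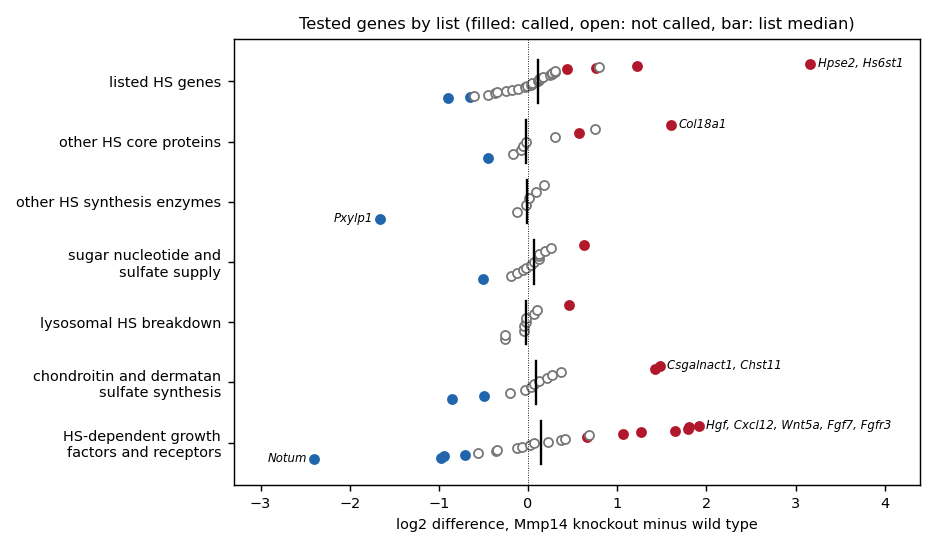
Log2 difference, Mmp14 knockout minus wild type (horizontal axis), of each tested gene in the heparan sulfate list and in 6 related lists. Filled points were called (red higher, blue lower), open points were not, bars are list medians, and the called genes farthest from 0 are named from the largest. The list medians lie between -0.023 and 0.14, while single genes such as Hpse2 (3.17), Col18a1 (1.60), Pxylp1 (-1.66) and Notum (-2.40) lie far from them.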

How the data were processed

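The deposited values were log2 intensities made by the authors, for 41345 probe sets on each of 4 Affymetrix arrays, per the labels and the series design. Per the labels' protocols, amplification to cDNA started from 10 ng of total RNA, and 3.75 µg of cDNA received biotin. The submitters' processing notes name oligo and limma without version or role, and the normalization is not given in the sources used here. Array medians were 2.32 to 2.37 log2. Detection calls and scanner files were not used here, and the number of arrays limits the precision.

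Symbols came from the platform annotation supplied with the table: 23521 probe sets had 1 symbol, 1814 several and 16010 none listed. Of the first, 23328 had an Entrez identifier in RefSeq (GRCm38.p6), which was used for chromosomes, neighbours and promoters. The brightest probe set stood for a gene, and genes were tested if their mean reached 2.34 log2, which is the median of all probe set means. Knockout was compared with wild type by limma 3.58.1 (lmFit and eBayes, two-sided, no block) in R 4.3.3, with 2 residual and 3.99 prior degrees of freedom, in 1 fit of 12708 genes with Benjamini-Hochberg adjustment. Intervals at 95% used the moderated SE. The procedure was run on simulated data with normal noise and variances drawn from limma's own fitted prior. That setting meets the assumptions of limma, so it does not test the calls made here. Every listed gene is accounted for by role, with full statistics for called genes and the largest difference of each role; up to 4 called genes of each related list are named. The members and lists were chosen with earlier results of these data known. Alternatives varied the filter, probe set choice, scaling, prior, weights, block, threshold and arrays.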

Additional observations from a re-analysis of the deposited data

How the results depend on the processing

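Of the 6 called heparan sulfate genes, Hpse2 and Hs6st1 were called under all 13 other fits. With the replicate number as a block, which the labels do not call a pairing (the deviations of same-numbered arrays correlated at -0.04), 2 listed genes were called higher and 2 lower, and Agrn and Xylt1 lost their calls (adjusted p = 0.0827 and 0.0607); over all genes 606 were called higher and 451 lower. When 1 fit held all probe sets, limma called 2 listed genes higher and 0 lower, against 6 and 5 at an unadjusted p under 0.05, with 5 and 2 of the other pathway genes and 129 and 89 of all probe sets. An adjusted p below 0.01 left 2 higher and 0 lower of the listed genes (6 and 5 at an unadjusted p under 0.05), 7 and 3 of the pathway genes and 264 and 195 of all genes, and one below 0.1 gave 5 listed genes higher, adding Hs3st3b1, and 4 lower, adding Sdc2 and Sdc3, with 1240 higher and 1125 lower of all genes. The stricter filter gave 5 listed genes lower, adding Sdc2, Sdc3 and B4galt7. It called 21.7% of the 7583 genes it tested, against 11.3% of all tested genes in the main fit. Trend and robust gave 6 listed genes higher, adding Ext1 and Hs3st3b1, and 4 lower, adding Sdc2 and Sdc3, with 1072 and 1027 of all genes. Without a filter 5 pathway genes were lower, with 1124 of all 22180 genes called in either direction. Agrn was then not called (limma adjusted p = 0.0726), nor was it after centring arrays on their medians (0.0551).

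With 1 array left out, where the lone array of a group is assumed to vary like the other group, 2 to 4 listed genes were called higher and 0 to 3 lower (with 0 lower, 2 had an unadjusted limma p under 0.05), 8 to 13 and 4 to 5 of the pathway genes, and 394 to 672 and 293 to 459 of all genes. The sign then turned for listed genes close to 0: Gpc2 ran between -0.075 and 0.15, Ndst2 between -0.097 and 0.031, Ndst3 between -0.079 and 0.17, Glce between -0.12 and 0.19 and Hs6st2 between -0.14 and 0.12. No sign of a listed gene turned under quantile normalization or centring, which moved the median difference of all genes by -0.021 and -0.022. Signal near the limit for dim genes limits Hpse, Extl1 and Ndst3.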

Other observations

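Chondroitin and dermatan sulfate chains start on the same linkage region as heparan sulfate. Of 12 tested genes of their synthesis 2 rose, 2 fell and 8 were not called, with a median of 0.092. The 4 called genes were 33.3% of the 12, beside 11.3% of all tested genes, and nothing is read from this share. Csgalnact1, which adds the N-acetylgalactosamine that commits a chain to chondroitin sulfate, had 5.76 and 5.70 log2 in knockout, against 4.00 and 4.49 in wild type (difference 1.48, SE 0.17, limma adjusted p = 0.00576). Chst11, a chondroitin 4-O-sulfotransferase needed for cartilage in the mouse, had 8.28 and 8.39 in knockout, against 6.90 and 6.91 in wild type (difference 1.43, SE 0.10, limma adjusted p = 0.00135). Both were called whichever array was left out. Csgalnact1 was not called when 1 fit held all probe sets (limma adjusted p = 0.0731). Chsy3, a chondroitin polymerase, fell by 0.85, with -0.27 at its second probe set, and Chst12, another 4-O-sulfotransferase, fell by 0.49. Chsy3 lost its call when Mmp14 knockout replicate 1 (adjusted p = 0.138), Mmp14 knockout replicate 2 (0.0717) or wild type replicate 2 (0.0748) was left out, and Chst12 was not called in any fit without 1 array (adjusted p = 0.0667 to 0.19). Over all alternatives the adjusted p reached 0.227 for Chsy3 and 0.2 for Chst12.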
